A study of Mus musculus with 15 samples.

Results

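The epidermal differentiation complex is a cluster of genes that encode the proteins of the outermost, cornified layer of the skin. Its members here were the rows of the count table whose Ensembl identifier maps to a mouse symbol that starts with Sprr, Lce or S100a, or that is Lor, Ivl, Flg, Flg2, Hrnr, Rptn, Crct1 or Crnn, with at least 10 counts summed over all libraries. Of 56059 rows, 61 carried such a name and 58 reached 10 counts. They comprised 21 Lce, 16 Sprr and 13 S100a genes, 5 fused S100 genes (Flg, Flg2, Hrnr, Rptn and Crnn) and 3 single envelope genes (Lor, Ivl and Crct1). S100a5 had 3 counts and the pseudogenes S100a11-ps and Sprr2c-ps had 0, and these 3 rows were left out. All 58 members lie on mouse chromosome 3.

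RNA was sequenced from mouse skin after bone marrow transplantation, in 15 libraries of 4 groups. The combination group (4 libraries) received allogeneic marrow, then belumosudil (150 mg/kg) together with Wnt-C59 (5 mg/kg). The Wnt-C59 group (4 libraries) received allogeneic marrow and Wnt-C59 alone at 5 mg/kg, the allogeneic group (3 libraries) received allogeneic marrow and 0.4% methylcellulose, the vehicle, and the syngeneic group (4 libraries) received syngeneic marrow and the same vehicle. Dosing was oral and daily from day 21 to day 49 after transplantation in all groups. Allogeneic transplantation models chronic graft-versus-host disease of the skin, Wnt-C59 inhibits Porcupine, an enzyme needed for Wnt secretion, and belumosudil inhibits the kinase ROCK2. Strain, sex, age and conditioning are not given in the sources used here, and nothing says whether each library is a separate mouse, so p-values measure the spread between these libraries, which may be technical.

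Keratinocytes that leave the basal layer stop dividing, make the proteins of the complex in sequence and are finally sealed by a cornified envelope. Transglutaminases crosslink involucrin, loricrin, small proline-rich (Sprr) and late cornified envelope (Lce) proteins into that envelope. Filaggrin, a fused S100 protein, bundles keratin filaments and is later degraded to moisture-holding amino acids. The S100a genes encode small calcium-binding proteins, several of which are made by inflamed epidermis and by leukocytes. Wounded and inflamed epidermis is known for high Sprr2, Sprr1b and, in human skin, LCE3 expression.

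Library totals ranged over 18992866 to 28779816 counts in the treated libraries and 16258690 to 20390744 counts in the vehicle libraries. Treated libraries also differed from vehicle libraries in ways that touch every comparison across that line. Malat1, a nuclear RNA, had 65.1 to 136 CPM (counts scaled to library size) in treated libraries and 1071 to 3501 CPM in vehicle libraries. Between 44.8% and 60.6% of values above 0 were not whole in treated libraries, against 31.1% to 34.4% in vehicle libraries. Log2 fold changes followed the GC content of the transcripts across all genes when treated and allogeneic libraries were compared (Spearman's rho 0.54 for the combination and 0.50 for Wnt-C59) and much less between both vehicle groups (-0.10). Treatment and these differences cannot be told apart. The skin label was checked on keratins: Krt5 of basal cells ranged over 2724 to 12770 CPM and Krt10 of suprabasal cells over 1130 to 16270 CPM, while the 3 markers of oral and oesophageal epithelium summed to at most 2.38 CPM in any library. The tissue was whole skin, so fewer cells of a type and less RNA per cell cannot be told apart.

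Some members that moved together below lie side by side on the chromosome, such as those from Sprr2a1 to Sprr1b and the Lce3 genes. Others, such as S100a3 and Crnn, do not. Promoters are shown to let shared letters be seen. Promoters of 51 members were found in RefSeq (GRCm38.p6), each from 250 bases before to 50 bases after the transcript start. The 7-letter AP-1 motif TGANTCA, read on both strands, was present in 16 of 51 member promoters (31.4%), against 7.9% of 27025 mouse promoters of the same length. The letters TATAAA were present in 23 of 51 (45.1%), against 14.2%. In the Sprr2 family 7 of 10 promoters held both, with the AP-1 letters starting between -198 and -193 from the transcript start in the 6 that held 1 match and the TATAAA letters at -29 in all 7. The promoters of Sprr2a1, Sprr2a2 and Sprr2a3 held neither. These genes made up most of the Sprr2 level in allogeneic libraries 1, 2 and 3 (7578, 5354 and 8874 of 8507, 5456 and 9270 CPM). Promoters of the 13 Lce1 and 6 Lce3 members held no AP-1 match. Of the members that rose in allogeneic skin (below), 11 of 27 with a promoter held the AP-1 letters. Of those not called 4 of 19 did, and of those that fell 1 of 4. The 11 were 7 members of the Sprr2 family and Flg, Rptn, S100a11 and Sprr1b, so related genes of 1 family make up most of them. The remaining motifs searched were KLF (CCNCNCCC, 25.5% of member promoters against 49.1% of all), GRHL (AACCNGTT, 3.9% against 2.0%) and STAT (TTCNNNGAA, 7.8% against 8.5%). The following 5 promoters stand for an Sprr gene outside the Sprr2 family, the Sprr2 family without Sprr2a1, Sprr2a2 and Sprr2a3, the fused S100 genes, loricrin and the Lce3 family. Capitals mark AP-1 and TATAAA matches.
Sprr1b, chr3:92438730-92439029, minus strand: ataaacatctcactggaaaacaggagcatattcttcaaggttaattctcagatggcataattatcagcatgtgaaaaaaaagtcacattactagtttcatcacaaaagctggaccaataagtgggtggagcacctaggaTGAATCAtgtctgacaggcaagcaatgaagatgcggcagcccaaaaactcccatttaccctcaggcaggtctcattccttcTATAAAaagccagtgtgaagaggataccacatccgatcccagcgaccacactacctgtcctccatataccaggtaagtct
Sprr2d, chr3:92338890-92339189, plus strand: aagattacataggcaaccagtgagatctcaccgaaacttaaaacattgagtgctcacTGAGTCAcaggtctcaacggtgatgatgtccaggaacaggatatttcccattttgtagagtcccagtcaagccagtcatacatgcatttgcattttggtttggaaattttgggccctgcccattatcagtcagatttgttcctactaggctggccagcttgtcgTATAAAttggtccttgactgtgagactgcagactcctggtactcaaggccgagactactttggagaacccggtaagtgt
Rptn, chr3:93393449-93393748, plus strand: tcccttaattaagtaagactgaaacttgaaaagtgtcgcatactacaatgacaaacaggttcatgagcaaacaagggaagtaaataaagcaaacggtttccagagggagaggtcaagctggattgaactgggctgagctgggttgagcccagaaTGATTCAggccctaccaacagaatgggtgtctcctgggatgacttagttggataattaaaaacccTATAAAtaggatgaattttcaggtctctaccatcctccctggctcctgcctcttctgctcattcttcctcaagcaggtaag
Lor, chr3:92083093-92083392, minus strand: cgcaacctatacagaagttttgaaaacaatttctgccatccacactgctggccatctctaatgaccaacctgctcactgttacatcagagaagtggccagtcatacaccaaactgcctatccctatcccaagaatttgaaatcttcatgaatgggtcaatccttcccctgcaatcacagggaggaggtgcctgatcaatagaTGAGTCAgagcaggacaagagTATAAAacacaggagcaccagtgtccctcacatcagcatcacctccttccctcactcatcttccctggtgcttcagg
Lce3f, chr3:92991967-92992266, plus strand: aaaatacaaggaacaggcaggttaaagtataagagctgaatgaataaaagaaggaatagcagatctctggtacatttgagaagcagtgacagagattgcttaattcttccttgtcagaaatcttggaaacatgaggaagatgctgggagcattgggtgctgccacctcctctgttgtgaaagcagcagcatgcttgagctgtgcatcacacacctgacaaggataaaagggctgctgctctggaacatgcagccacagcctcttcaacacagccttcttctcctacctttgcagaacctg
Sprr1b, Sprr2d, Rptn and Lor thus each carried 1 match of both motifs and Lce3f neither, although Lor behaved unlike the first 3 in the data below. These matches describe the letters only.

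The summed level of all 58 members was 15020, 10090, 14640 and 11980 CPM in combination libraries 2, 3, 4 and 5, and 13880, 9753, 11770 and 16870 CPM in Wnt-C59 libraries 1, 2, 4 and 5. It was 21260, 19750 and 30360 CPM in allogeneic libraries 1, 2 and 3, and 6648, 8295, 11110 and 10150 CPM in syngeneic libraries 1 to 4. The allogeneic libraries were thus the highest and did not overlap any other group. The makeup of the sum differed by group: Sprr genes made up 11090, 6290 and 11030 CPM in allogeneic libraries but 342 to 1108 CPM in syngeneic ones, whereas Lor, Ivl and Crct1 together reached 5247 to 10060 CPM in Wnt-C59 libraries and 1172 to 4654 CPM in allogeneic ones.

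**Figure D1:**
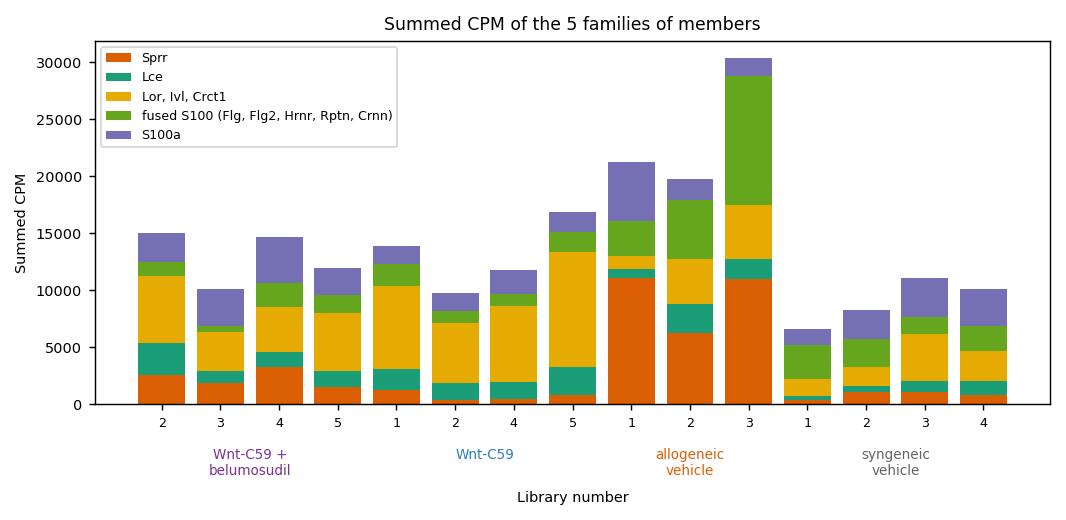
Summed CPM of the 5 families of members in each library, stacked, with combination libraries on the left and syngeneic libraries on the right. Allogeneic libraries reached 19750 to 30360 CPM, with Sprr genes at 6290 CPM or more, and all other libraries stayed at or below 16870 CPM.

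Allogeneic against syngeneic skin compares the complex between both graft types under the same vehicle. Sprr2 and Lce3 genes, Sprr1b, the filaggrin relatives Flg, Hrnr and Rptn, and S100a8 and S100a9 were higher in allogeneic skin, while the constitutive envelope genes Lor, Ivl and Crct1 were not called. With edgeR's quasi-likelihood test and Benjamini-Hochberg adjustment over 18651 genes, called at an adjusted p under 0.05, 30 of the 56 members tested rose and 5 fell, beside 14.6% of all genes that rose and 15.1% that fell (29.8% in either direction). S100a2 and Sprr3 had too few counts to be tested. The median log2 fold change was 2.16 over the tested members and -0.07 over all genes tested. The libraries of both groups did not overlap for 28 members higher and 2 lower in allogeneic skin, beside 16.7% and 19.9% of all genes. With the mean log2 CPM of 6 basal keratinocyte markers as a covariate, 6 members remained called higher and 0 lower, and genes called fell to 956, against 5556 without it. These markers summed to 12510 to 17880 CPM in allogeneic libraries and 5110 to 8762 CPM in syngeneic ones, so that the covariate itself separates the groups.

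**Figure D2:**
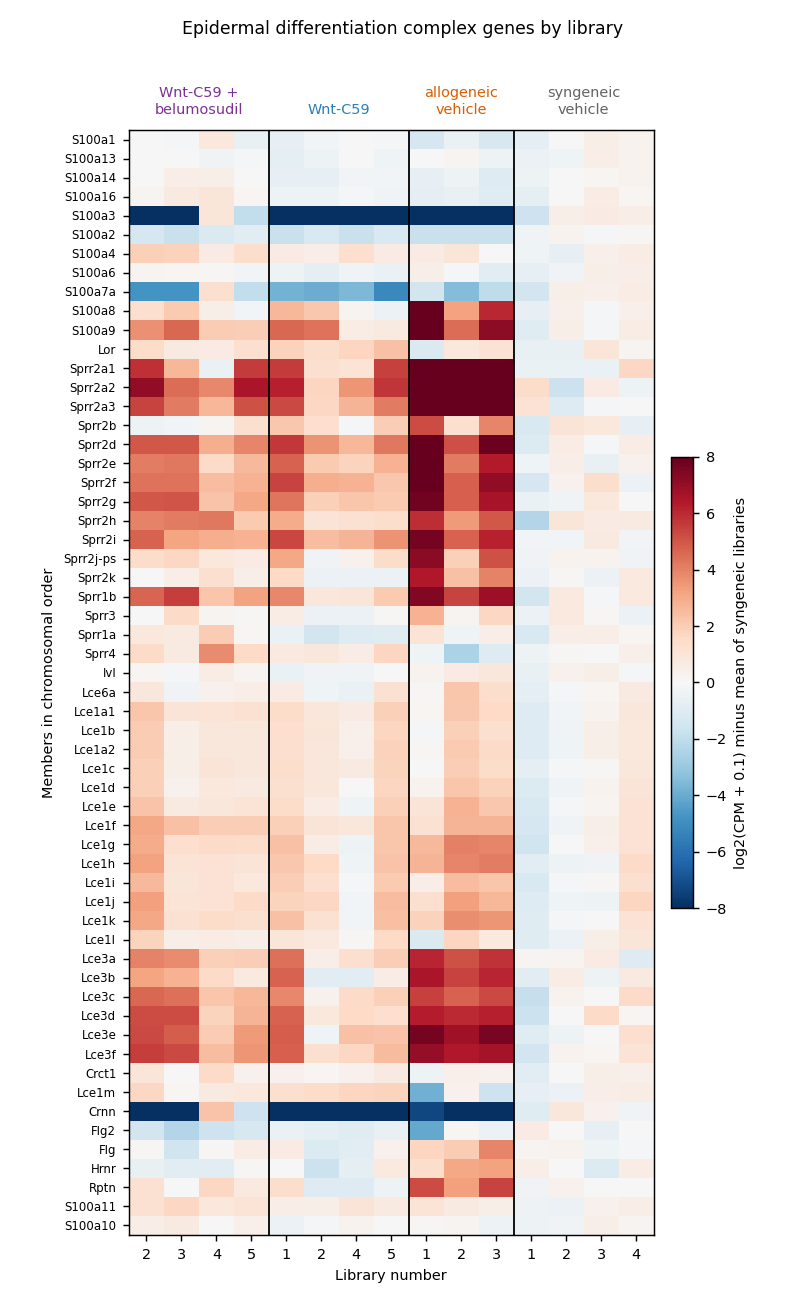
Level of each of the 58 members (rows, in chromosomal order) in each of the 15 libraries (columns), as log2(CPM + 0.1) minus the mean of the syngeneic libraries. Colours saturate at 8 log2 units. The Sprr2 to Sprr1b and Lce3 blocks are red in allogeneic libraries and paler in treated ones, and S100a3 and Crnn are blue in all but syngeneic libraries and combination libraries 4 and 5.

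All 12 Sprr2 members rose in allogeneic skin, with log2 fold changes of 4.43 to 10.19 and adjusted p of 7.8e-05 to 0.0047. Sprr2 proteins bridge other envelope proteins. Sprr2a2 had 4932, 4054 and 6277 CPM in allogeneic libraries 1, 2 and 3, against 16.9, 1.72, 9.43 and 4.37 CPM in syngeneic libraries 1 to 4 (log2 fold change 9.29, SE 1.4, adjusted p = 0.0004). Sprr2a3 had 2529, 1197 and 2479 CPM in allogeneic libraries, against 6.28, 1.25, 2.43 and 2.73 CPM in syngeneic ones (log2 fold change 9.35, SE 1.1, adjusted p = 7.8e-05). The lowest allogeneic library stood far above the highest syngeneic one for both genes. Sprr2a1, Sprr2a2 and Sprr2a3 are near copies of each other: 96.3%, 96.5% and 61.1% of their 50-base windows occur in another gene, and the promoters of Sprr2a1 and Sprr2a2 are identical, so their counts cannot be told apart with certainty. Their sum was 7578, 5354 and 8874 CPM in allogeneic libraries, against 2.97 to 23.2 CPM in syngeneic ones. The other 9 Sprr2 members share at most 13.7% of their windows and rose as well, by 4.43 to 8.66 on the log2 scale.

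Sprr2d, with 4.3% of windows shared, had 219, 18.1 and 113 CPM in allogeneic libraries, against 0.138, 0.649, 0.366 and 0.661 CPM in syngeneic ones (log2 fold change 7.99, SE 1.1, adjusted p = 0.00022). Library 1 was the highest and library 2 the lowest of the allogeneic libraries, an order shared by all Sprr2 members outside the Sprr2a copies. Sprr2i had 587 counts over 3 allogeneic libraries and 2 counts over 4 syngeneic ones (adjusted p = 0.00021). Sprr2k, the least abundant of the named Sprr2 genes, had 11.2, 0.599 and 2.03 CPM in allogeneic libraries, against 0, 0.0464, 0 and 0.132 CPM in syngeneic ones (log2 fold change 6.49, SE 1.3, adjusted p = 0.0016).

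The neighbours of the Sprr2 block differed among themselves. Sprr1b, a stress-inducible envelope protein, had 1033, 254 and 697 CPM in allogeneic libraries, against 2.11, 10.3, 5.58 and 10.3 CPM in syngeneic ones (log2 fold change 6.54, SE 1.1, adjusted p = 0.00084). Its paralogue Sprr1a had 1550, 579 and 1065 CPM in allogeneic libraries, against 312, 1059, 1078 and 825 CPM in syngeneic ones, and was not called (log2 fold change 0.38, SE 0.48, adjusted p = 0.59). Sprr1b thus differed between groups by far more than its spread, whereas the groups overlapped for Sprr1a, which was already abundant in syngeneic skin. Sprr4 had 2.73, 0.539 and 1.69 CPM in allogeneic libraries, against 2.66 to 4.63 CPM in syngeneic ones (log2 fold change -1.12, adjusted p = 0.24). In chromosomal order the 13 consecutive members from Sprr2a1 to Sprr1b all rose, and Sprr3, Sprr1a, Sprr4 and Ivl beyond them were untested or not called.

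All 6 Lce3 members rose (log2 fold changes 4.82 to 7.85, adjusted p 0.00067 to 0.0065), and 5 of 14 Lce1 members did (Lce1e, Lce1f, Lce1g, Lce1h and Lce1k, 1.95 to 3.38). The Lce1e call was lost without allogeneic library 2 or 3 or syngeneic library 1, 2 or 3 and with no filter on low counts, and the Lce1f call without allogeneic library 3. In human skin LCE3 genes are known as those induced after barrier disruption and LCE1 genes as those of normal epidermis. Lce3f had 56.1, 35.3 and 42.8 CPM in allogeneic libraries, against 0.0459, 0.417, 0.366 and 0.794 CPM in syngeneic ones (log2 fold change 6.76, SE 1.1, adjusted p = 0.0007). Lce3e had 38.9, 21.4 and 37.9 CPM in allogeneic libraries, against 0, 0.0464, 0.0916 and 0.397 CPM in syngeneic ones (log2 fold change 7.85, SE 1.3, adjusted p = 0.00085). The Lce3 sum of 122 to 205 CPM in allogeneic libraries and 0.413 to 5.07 CPM in syngeneic ones shows no overlap. Between 12.1% and 49.3% of the 50-base windows of Lce3 genes occur in other genes, most in each other, so single Lce3 values are less certain than their sum.

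The Lce1 genes were the abundant Lce genes of syngeneic skin, with a sum of 373, 534, 905 and 1207 CPM there, against 550, 2342 and 1545 CPM in allogeneic skin. Lce1a1 had 101, 399 and 269 CPM in allogeneic libraries, against 44.5, 77.1, 109 and 169 CPM in syngeneic ones (log2 fold change 1.36, SE 0.51, adjusted p = 0.059). Lce1b and Lce1c were not called either (log2 fold changes 1.08 and 1.23, adjusted p = 0.14 and 0.071). DESeq2 called Lce1a1 and Lce1c higher (adjusted p = 0.016 and 0.024). A fit of 6 vehicle libraries blocked by library number called Lce1a1, Lce1b and Lce1c higher (adjusted p = 0.014, 0.038 and 0.02). Lce1m had 18.5, 339 and 84.0 CPM in allogeneic libraries, against 167, 185, 386 and 395 CPM in syngeneic ones (log2 fold change -0.94, SE 0.70, adjusted p = 0.34). It is the only Lce gene beyond Crct1 in chromosomal order. Allogeneic library 1 was the lowest of the 3 for each of these 4 genes, and without it 7 more Lce genes were called higher (Lce1a1, Lce1a2, Lce1c, Lce1d, Lce1i, Lce1j and Lce6a).

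Loricrin and involucrin, the classical envelope proteins, were not called. Lor had 848, 3430 and 4116 CPM in allogeneic libraries, against 1257, 1262, 3610 and 2163 CPM in syngeneic ones (log2 fold change 0.43, SE 0.47, adjusted p = 0.52). Ivl had 129, 166 and 199 CPM in allogeneic libraries, against 67.7, 131, 142 and 94.4 CPM in syngeneic ones (log2 fold change 0.60, SE 0.24, adjusted p = 0.073). Crct1 had 195, 345 and 339 CPM in allogeneic libraries, against 150 to 362 CPM in syngeneic ones (log2 fold change 0.07, SE 0.36, adjusted p = 0.90). The groups overlapped for all 3. Per kilobase of transcript, Lor was at 1573 mean CPM in allogeneic and 1165 in syngeneic skin, while Sprr2a2 was at 1775 in allogeneic and 2.83 in syngeneic skin.

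Of the fused S100 genes, 3 rose. Flg, profilaggrin, had 1690, 2142 and 7949 CPM in allogeneic libraries, against 605, 633, 408 and 483 CPM in syngeneic ones (log2 fold change 2.88, SE 0.60, adjusted p = 0.003). Hrnr, hornerin, a filaggrin-like protein, had 437, 1406 and 1538 CPM in allogeneic libraries, against 238, 159, 75.8 and 249 CPM in syngeneic ones (log2 fold change 2.64, SE 0.59, adjusted p = 0.0047). Rptn, repetin, an envelope precursor, had 833, 218 and 943 CPM in allogeneic libraries, against 18.8, 28.3, 21.5 and 22.1 CPM in syngeneic ones (log2 fold change 4.87, SE 0.70, adjusted p = 0.00029). None of these 3 overlapped between groups, and the size grew in the order Hrnr, Flg, Rptn. Flg2 did not pass: it had 72.8, 1387 and 894 CPM in allogeneic libraries, against 2011, 1270, 780 and 1244 CPM in syngeneic ones (log2 fold change -0.76, SE 0.63, adjusted p = 0.40). Allogeneic library 1, the lowest for Flg2, Lor and Lce1m, was also the lowest for Krt10 (1130 CPM, against 9833 and 5071 CPM in allogeneic libraries 2 and 3).

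S100a8 and S100a9, the subunits of calprotectin, which neutrophils and inflamed keratinocytes both make, rose. S100a8 had 1557, 24.3 and 172 CPM in allogeneic libraries, against 1.56, 3.39, 2.24 and 3.44 CPM in syngeneic ones (log2 fold change 7.78, SE 1.4, adjusted p = 0.0013). S100a9 had 1629, 23.9 and 157 CPM in allogeneic libraries, against 0.459, 1.39, 0.915 and 1.499 CPM in syngeneic ones (log2 fold change 9.13, SE 1.7, adjusted p = 0.002). Without allogeneic library 1 the log2 fold changes were 5.20 for S100a8 and 6.40 for S100a9 (adjusted p = 0.0029 and 0.006). Their level differed more among allogeneic libraries than that of any Sprr2 member named above. The 10 neutrophil markers, a list without S100a8 and S100a9, summed to 455, 49.3 and 105 CPM in the same allogeneic libraries and to 2.92 to 6.64 CPM in syngeneic ones, and 5 of the 8 tested rose (62.5%, beside 14.6% of all genes). The defining granule gene Ngp was at 49.9, 0 and 6.37 CPM in allogeneic libraries, against 0, 0.0464, 0 and 0 CPM in syngeneic ones, while Cxcr2, a chemokine receptor, was at 30.7, 34.3 and 38.6 CPM, against 0.275 to 1.01 CPM. The part of neutrophils in the S100a8 and S100a9 result was not tested.

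Of the other 10 S100a genes tested, S100a3 fell by far the most and is described with S100a7a and Crnn further on. S100a11, an annexin-binding S100 protein, had 572, 438 and 378 CPM in allogeneic libraries, against 208, 199, 338 and 386 CPM in syngeneic ones (log2 fold change 0.71, SE 0.26, adjusted p = 0.049). S100a14 and S100a16, S100 proteins of epithelia, and S100a1 fell by 0.68, 0.83 and 1.06 in log2 units (adjusted p = 0.028, 0.026 and 0.032), with overlapping libraries. Each of the calls of S100a11, S100a14, S100a16 and S100a1 was lost when single libraries were left out, S100a11 without allogeneic libraries 1 or 2 or syngeneic libraries 1 or 2, and the other 3 without allogeneic libraries 1 or 3 or syngeneic libraries 2, 3 or 4, with adjusted p up to 0.19. S100a16 was also lost without allogeneic library 2. S100a6, calcyclin, had 568, 367 and 234 CPM in allogeneic libraries, against 258 to 592 CPM in syngeneic ones (log2 fold change -0.17, adjusted p = 0.71). S100a1 and S100a13 overlap on the chromosome, and 56.3% of S100a4 and 41.1% of S100a11 windows occur in another annotated gene, so these values are uncertain.

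Genes that act on the complex moved in part with it. Of 12 cytokines known to act on these genes in keratinocytes, 8 were tested and 7 rose (87.5%, beside 14.6% of all genes). Il36g, listed as Il1f9, had 158, 114 and 166 CPM in allogeneic libraries, against 16.1, 13.5, 14.7 and 29.01 CPM in syngeneic ones (log2 fold change 2.99, SE 0.40, adjusted p = 0.00013). Il36a, listed as Il1f6, rose by 4.56 and Ifng, interferon gamma, by 6.00 in log2 units (adjusted p = 0.00019 and 0.00018). Il17a had 0 counts in all 15 libraries. Of 16 transcription factors and receptors of keratinocyte differentiation, 4 rose (25%) and 3 fell (18.8%), beside 14.6% and 15.1% of all genes. Grhl3, which drives barrier formation, rose by 1.33 (adjusted p = 0.00021), and Notch1, a receptor that promotes differentiation, and Gata3 fell by 1.28 and 1.05 in log2 units (adjusted p = 0.0011 and 0.0073).

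Of 15 enzymes and inhibitors that crosslink or process envelope proteins, 5 rose (33.3%) and 2 fell (13.3%). This and the list counts below stand beside 14.6% of all genes that rose and 15.1% that fell. Asprv1, the protease that processes profilaggrin, rose by 2.03 and Blmh, a peptidase of filaggrin breakdown, by 1.37 in log2 units (adjusted p = 0.00016 and 0.00043), while Cst6, a cystatin, fell by 2.01 (adjusted p = 0.0019). Tgm1, the main epidermal transglutaminase, was not called (log2 fold change 0.56, adjusted p = 0.11). Of 13 suprabasal keratins and scaffold genes 4 rose and 0 fell, with Krt1 at 1.89, Krtdap at 0.98 and Cnfn, cornifelin, at 1.28 (adjusted p = 0.0073, 0.013 and 0.023). Of the 6 tested genes of the complex outside the member rule, Pglyrp3, a peptidoglycan-binding protein, and Kprp rose by 2.86 and 1.38 (adjusted p = 1e-05 and 0.018) and 3 fell, Tchh, trichohyalin of the inner root sheath, by 8.50 (adjusted p = 0.02). Of 3 receptors that bind S100a8 and S100a9, Tlr4 rose by 2.10 and Ager fell by 1.28 (adjusted p = 0.00076 and 0.028). Of 4 keratins of activated epidermis 3 rose, and Krt17 was not called (log2 fold change -0.48, adjusted p = 0.30). Krt6a had 5991, 2587 and 4826 CPM in allogeneic libraries, against 188, 360, 335 and 293 CPM in syngeneic ones (log2 fold change 3.93, SE 0.53, adjusted p = 0.00014), and Krt16 rose by 7.09 (adjusted p = 0.00067).

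**Figure D3:**
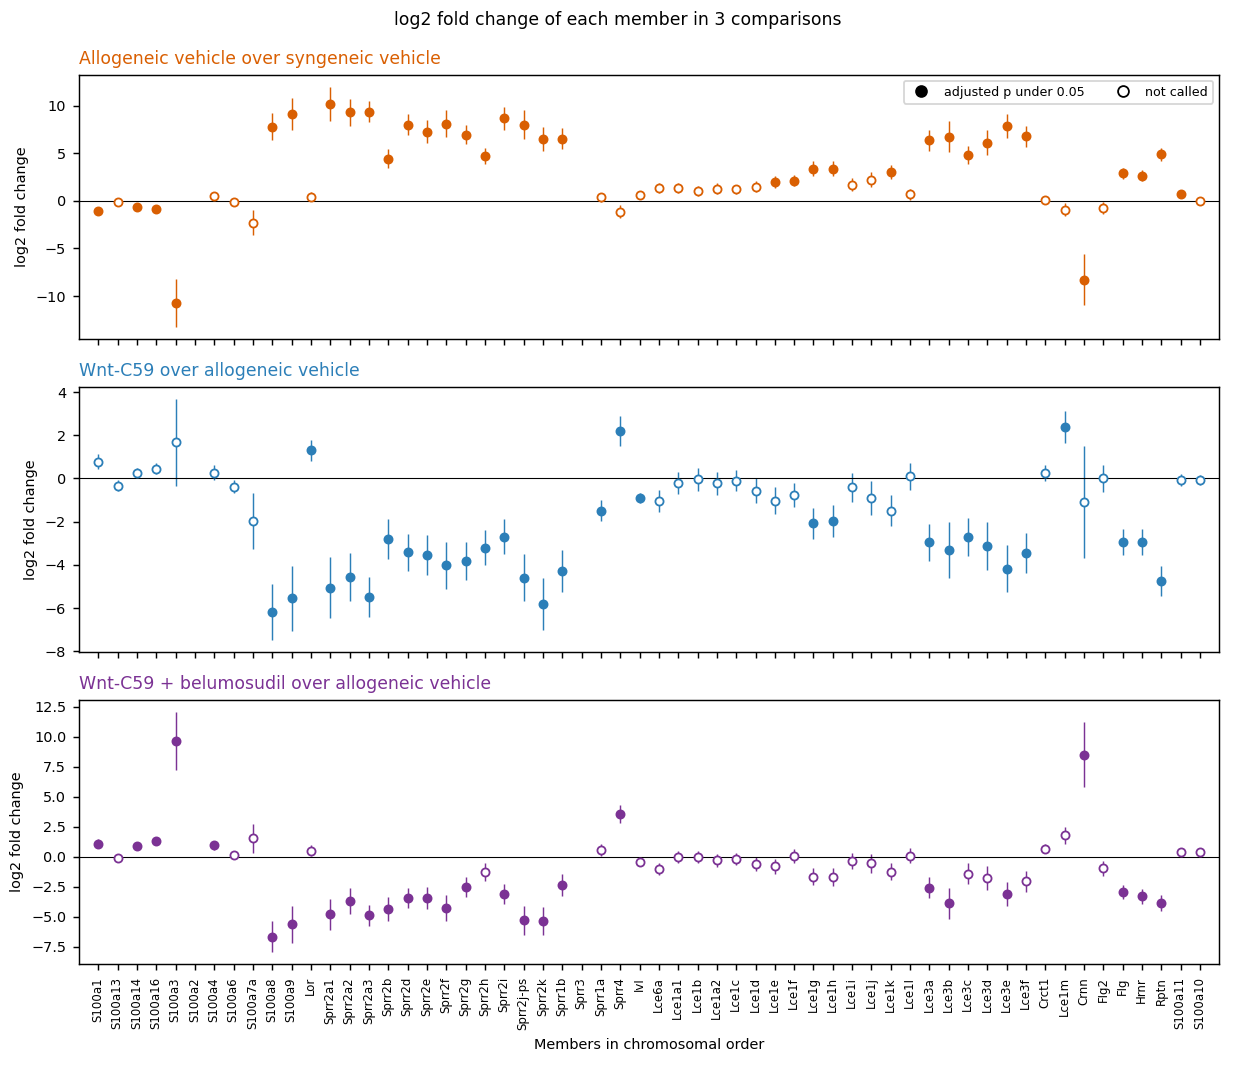
log2 fold change with its standard error for each tested member in chromosomal order, for allogeneic over syngeneic (top), Wnt-C59 over allogeneic (middle) and combination over allogeneic (bottom) libraries, on separate vertical scales. Filled points passed an adjusted p of 0.05: the 13 members from Sprr2a1 to Sprr1b are all filled above 0 in the top panel and below 0 in the middle panel, and 12 of the 13 are filled below 0 in the bottom panel.

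Wnt-C59 against allogeneic vehicle skin compares these genes after allogeneic transplantation with and without Wnt-C59. The same blocks were lower in Wnt-C59 skin, the Sprr2, Lce3 and Sprr1b genes and Flg, Hrnr and Rptn, and S100a8 and S100a9 with them, while Lor, Lce1m and Sprr4 were higher. Of 56 tested members 28 fell (50%) and 3 rose (5.36%), beside 26.2% of all genes that fell and 24.6% that rose (50.8% in either direction), with a median log2 fold change of -1.49 over members and 0 over all genes. The libraries did not overlap for 22 members lower and 5 higher, beside 27.1% and 26.4% of all genes. This comparison and the one before share the allogeneic libraries, so the lower values here and the higher ones there are not independent. Without allogeneic library 1, 21 of the 31 calls remained.

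All 12 Sprr2 members fell (log2 fold changes -5.82 to -2.69, adjusted p 0.00039 to 0.021), and for 6 of them the libraries did not overlap. Sprr2a2 had 450, 19.6, 69.4 and 321 CPM in Wnt-C59 libraries 1, 2, 4 and 5, against 4932, 4054 and 6277 CPM in allogeneic libraries (log2 fold change -4.56, SE 1.1, adjusted p = 0.0049). Sprr2a3 had 107, 8.83, 18.5 and 49.3 CPM in Wnt-C59 libraries, against 2529, 1197 and 2479 CPM in allogeneic ones (log2 fold change -5.50, SE 0.92, adjusted p = 0.00039). Sprr2d had 25.3, 6.00, 3.07 and 9.13 CPM in Wnt-C59 libraries, against 219, 18.1 and 113 CPM in allogeneic ones (log2 fold change -3.42, SE 0.85, adjusted p = 0.0052). The groups stood apart for the Sprr2a copies but overlapped for Sprr2d, where Wnt-C59 library 1 exceeded allogeneic library 2. Sprr2k had 0.308, 0, 0 and 0 CPM in Wnt-C59 libraries, against 11.2, 0.599 and 2.03 CPM in allogeneic ones (log2 fold change -5.82, SE 1.2, adjusted p = 0.0012). Sprr2i fell by 2.69 (adjusted p = 0.015), which no longer passed once allogeneic library 1 was left out (log2 fold change -1.63, adjusted p = 0.13). The calls of Sprr2b, Sprr2e and Sprr2f were also lost without that library.

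Sprr1b had 87.1, 11.1, 11.9 and 25.3 CPM in Wnt-C59 libraries, against 1033, 254 and 697 CPM in allogeneic ones (log2 fold change -4.29, SE 0.97, adjusted p = 0.0031). Sprr1a had 505, 271, 368 and 372 CPM in Wnt-C59 libraries, against 1550, 579 and 1065 CPM in allogeneic ones (log2 fold change -1.49, SE 0.48, adjusted p = 0.018, and -1.12 with adjusted p = 0.098 without allogeneic library 1). Both fell, Sprr1b by more. Sprr4, by contrast, had 6.25, 6.79, 5.31 and 11.8 CPM in Wnt-C59 libraries, against 2.73, 0.539 and 1.69 CPM in allogeneic ones (log2 fold change 2.19, SE 0.70, adjusted p = 0.019). Its groups did not overlap, and it no longer passed once allogeneic library 2 or 3 was left out (adjusted p = 0.071 and 0.06).

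All 6 Lce3 members fell (log2 fold changes -4.18 to -2.71, adjusted p 0.0056 to 0.045) with no overlap. Lce3f had 11.7, 0.942, 1.25 and 2.38 CPM in Wnt-C59 libraries, against 56.1, 35.3 and 42.8 CPM in allogeneic ones (log2 fold change -3.46, SE 0.92, adjusted p = 0.0075). The calls of Lce3b and Lce3d were lost without any single allogeneic library and without Wnt-C59 library 2, 4 or 5, and that of Lce3c without allogeneic library 1 or Wnt-C59 library 4 or 5. Of the Lce1 members, Lce1g and Lce1h fell by 2.07 and 1.97 in log2 units (adjusted p = 0.03 and 0.044), calls that were lost without Wnt-C59 library 2 or 4 or allogeneic library 2 or 3, with no filter on low counts and with the keratinocyte covariate, and for Lce1h also without Wnt-C59 library 1. Lce1m rose, with 625, 732, 861 and 891 CPM in Wnt-C59 libraries, against 18.5, 339 and 84.0 CPM in allogeneic ones (log2 fold change 2.40, SE 0.74, adjusted p = 0.017). Every Wnt-C59 library exceeded every allogeneic library for Lce1m. Once allogeneic library 3 was left out, Lce1m no longer passed (adjusted p = 0.067), nor did it when the GC trend was removed (log2 fold change 1.75, adjusted p = 0.061). Lce1a1, Lce1b and Lce1c had log2 fold changes of -0.21, -0.04 and -0.11 (adjusted p = 0.76, 0.96 and 0.88).

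Lor had 6853, 4867, 6282 and 9516 CPM in Wnt-C59 libraries, against 848, 3430 and 4116 CPM in allogeneic ones (log2 fold change 1.30, SE 0.49, adjusted p = 0.039). The libraries did not overlap. The log2 fold change of Lor was 0.00 once each library's GC trend was removed (adjusted p = 1), and its call was also lost in 8 of the other alternatives, among them those without Wnt-C59 library 1, 4 or 5 or allogeneic library 1 or 2. Ivl fell, with 71.6, 85.2, 84.3 and 107 CPM in Wnt-C59 libraries, against 129, 166 and 199 CPM in allogeneic ones (log2 fold change -0.92, SE 0.24, adjusted p = 0.0053). Crct1 had a log2 fold change of 0.26 (adjusted p = 0.59).

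Flg had 835, 245, 295 and 660 CPM in Wnt-C59 libraries, against 1690, 2142 and 7949 CPM in allogeneic ones (log2 fold change -2.95, SE 0.60, adjusted p = 0.0013). Hrnr had 162, 49.4, 94.0 and 282 CPM in Wnt-C59 libraries, against 437, 1406 and 1538 CPM in allogeneic ones (log2 fold change -2.94, SE 0.60, adjusted p = 0.0012). Rptn had 60.8, 11.1, 10.9 and 16.8 CPM in Wnt-C59 libraries, against 833, 218 and 943 CPM in allogeneic ones (log2 fold change -4.74, SE 0.69, adjusted p = 0.00015). All 3 fell without overlap, and Flg2 was equal on average (783 ± 98.0 CPM, SD, n = 4, in Wnt-C59 and 785 ± 664 CPM, SD, n = 3, in allogeneic libraries; log2 fold change 0.00, adjusted p = 1).

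S100a8 had 16.2, 11.4, 3.02 and 1.81 CPM in Wnt-C59 libraries, against 1557, 24.3 and 172 CPM in allogeneic ones (log2 fold change -6.17, SE 1.3, adjusted p = 0.0017, and -3.60 with adjusted p = 0.008 without allogeneic library 1). S100a9 had 26.5, 21.8, 1.51 and 1.66 CPM in Wnt-C59 libraries, against 1629, 23.9 and 157 CPM in allogeneic ones (log2 fold change -5.55, SE 1.5, adjusted p = 0.0074, and -2.81 with adjusted p = 0.073 without allogeneic library 1). The neutrophil markers summed to 27.8, 28.7, 6.04 and 14.7 CPM in the same Wnt-C59 libraries. No other S100a gene was called, S100a11, S100a14, S100a16 and S100a6 having log2 fold changes of -0.07, 0.25, 0.46 and -0.39 (adjusted p = 0.86, 0.36, 0.15 and 0.29).

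Of the cytokines tested 7 of 8 fell (87.5%, beside 26.2% of all genes), Il36a (Il1f6) by 2.05, Il36g (Il1f9) by 1.39 and Ifng by 2.42 in log2 units (adjusted p = 0.0091, 0.0079 and 0.0082). Of the regulators 4 fell (25%) and 2 rose (12.5%), shares no higher than the 26.2% and 24.6% of all genes. Fosl2, an AP-1 subunit, fell by 1.88 and Trp63, which maintains basal keratinocytes, by 1.05 (adjusted p = 2.9e-05 and 1e-04), and Cebpa rose by 1.17 (adjusted p = 0.00035). Of the crosslinking and processing genes 5 fell (33.3%) and 2 rose (13.3%), beside the same shares of all genes. Spink5, a protease inhibitor of the outer epidermis, and Blmh fell by 1.33 and 1.24 (adjusted p = 2e-04 and 0.00038), and Cst6 rose by 2.21 (adjusted p = 0.00049). Of the suprabasal partners 3 rose (23.1%) and 2 fell (15.4%), no higher than over all genes. Dsc1, a desmosomal cadherin, fell by 3.13 (adjusted p = 1.1e-05). Of the 4 activated keratins 3 fell (75%) and 0 rose, Krt6a falling by 2.53 and Krt16 by 3.24 (adjusted p = 0.001 and 0.014).

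**Figure D4:**
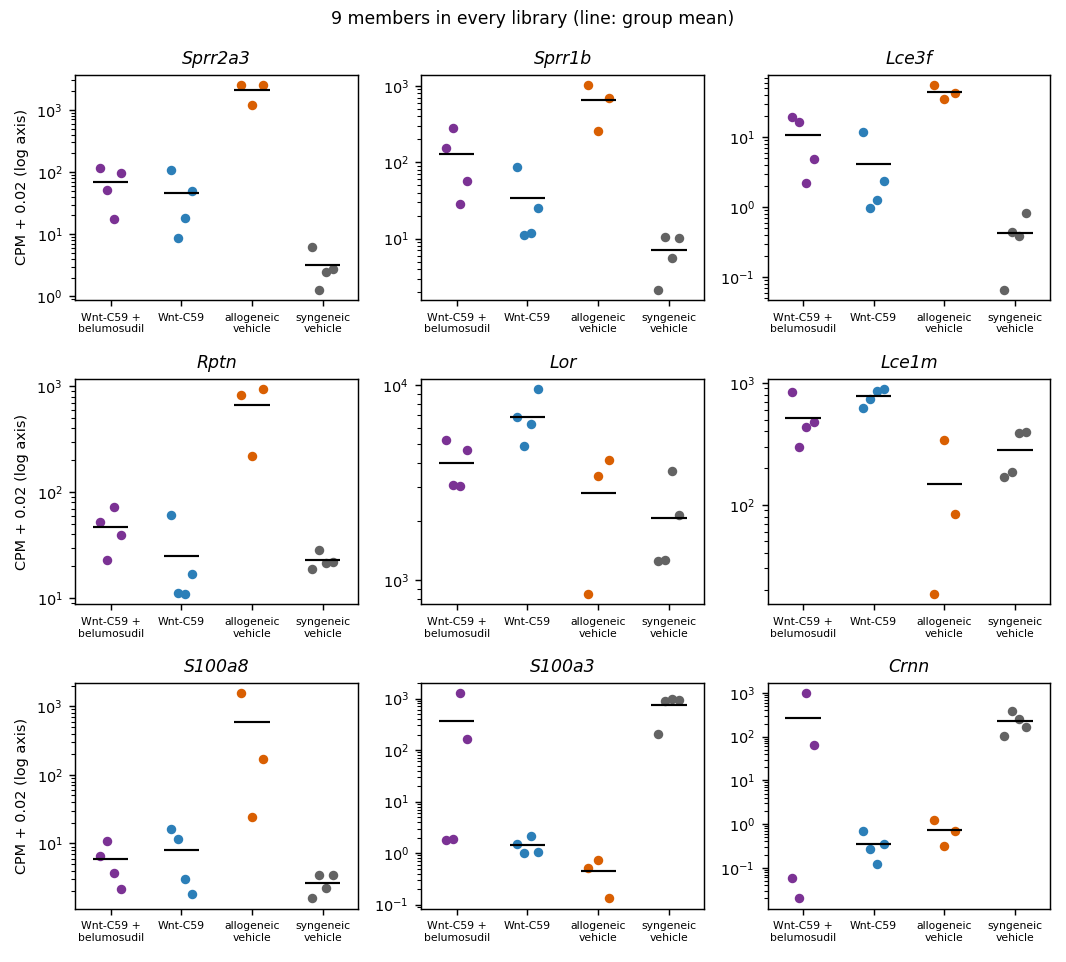
CPM + 0.02 of 9 members in every library on log axes, with combination, Wnt-C59, allogeneic and syngeneic libraries from left to right and lines at the group means. Sprr2a3, Lce3f and Rptn are highest in the 3 allogeneic libraries, Lor and Lce1m have their highest group means in Wnt-C59 libraries, with combination library 2 within the Wnt-C59 range, and S100a3 and Crnn are high in syngeneic libraries and in combination libraries 4 and 5.

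The combination against allogeneic vehicle skin showed the same blocks lower, with fewer Lce3 calls. Of 56 tested members 20 fell (35.7%) and 7 rose (12.5%), beside 27.4% of all genes that fell and 27.1% that rose (54.5% in either direction), with a median log2 fold change of -0.99 over members and 0.01 over all genes. The share of members that fell was thus closer to that of all genes than under Wnt-C59 alone (50% beside 26.2%). The libraries did not overlap for 19 members lower and 4 higher, beside 26.4% and 25.6% of all genes. Members called lower, newly called ones included, were 13 without allogeneic library 1. They were 12 without combination libraries 4 and 5, an alternative chosen after seeing the data. The share of all genes called lower in these alternatives is not given here, so these counts have no background. Of the 27 calls in either direction, 15 remained without allogeneic library 1. Without combination libraries 4 and 5, 16 remained and 1 changed direction.

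Of the Sprr2 members 11 fell (log2 fold changes -5.34 to -2.54, adjusted p 0.00062 to 0.02). The calls of Sprr2e, Sprr2f, Sprr2g and Sprr2i were lost without allogeneic library 1, and these and that of Sprr2a2 without combination libraries 4 and 5; that of Sprr2g was also lost without combination library 5. Sprr2h was the exception, with 67.7, 77.8, 82.5 and 18.3 CPM in combination libraries 2, 3, 4 and 5, against 265, 47.1 and 137 CPM in allogeneic libraries (log2 fold change -1.28, SE 0.76, adjusted p = 0.17). Sprr2a2 had 811, 132, 87.6 and 551 CPM in combination libraries, against 4932, 4054 and 6277 CPM in allogeneic ones (log2 fold change -3.69, SE 1.1, adjusted p = 0.012, and 0.063 with the GC trend removed). Sprr2a3 had 118, 50.5, 17.2 and 95.5 CPM in combination libraries, against 2529, 1197 and 2479 CPM in allogeneic ones (log2 fold change -4.88, SE 0.89, adjusted p = 0.00062). Sprr2d had 15.5, 15.9, 3.67 and 7.51 CPM in combination libraries, against 219, 18.1 and 113 CPM in allogeneic ones (log2 fold change -3.45, SE 0.85, adjusted p = 0.0045). No combination library reached the allogeneic range for these 3 genes.

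Sprr1b had 156, 277, 28.6 and 56.8 CPM in combination libraries, against 1033, 254 and 697 CPM in allogeneic ones (log2 fold change -2.35, SE 0.91, adjusted p = 0.044). That call was lost without allogeneic library 1 or 3 and without combination library 2, 4 or 5 (adjusted p 0.07 to 0.14). Sprr1a was not called, with 1313, 1238, 3012 and 789 CPM in combination libraries (log2 fold change 0.58, SE 0.48, adjusted p = 0.33). Sprr4 rose, with 10.6, 5.92, 49.9 and 10.9 CPM in combination libraries, against 2.73, 0.539 and 1.69 CPM in allogeneic ones (log2 fold change 3.54, SE 0.74, adjusted p = 0.0012).

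Lce3a, Lce3b and Lce3e fell by 2.57, 3.87 and 3.06 in log2 units (adjusted p = 0.021, 0.024 and 0.021). Lce3f had 19.7, 16.3, 2.20 and 4.84 CPM in combination libraries, against 56.1, 35.3 and 42.8 CPM in allogeneic ones, and did not pass (log2 fold change -2.05, SE 0.88, adjusted p = 0.064), although the libraries of both groups did not overlap for any Lce3 gene. The 3 Lce3 calls were lost without allogeneic library 1 and without combination library 5, those of Lce3a and Lce3b also without combination library 4, and that of Lce3e without allogeneic library 3. None of the 14 Lce1 genes was called. Lce1m had 839, 295, 439 and 475 CPM in combination libraries (log2 fold change 1.80, SE 0.72, adjusted p = 0.051), and Lor had 5246, 3073, 3017 and 4624 CPM (log2 fold change 0.51, SE 0.48, adjusted p = 0.38). Ivl and Crct1 were not called either (log2 fold changes -0.41 and 0.68, adjusted p = 0.16 and 0.13).

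Flg had 569, 175, 567 and 776 CPM in combination libraries, against 1690, 2142 and 7949 CPM in allogeneic ones (log2 fold change -2.91, SE 0.60, adjusted p = 0.0012). Hrnr had 110, 88.8, 85.7 and 175 CPM in combination libraries, against 437, 1406 and 1538 CPM in allogeneic ones (log2 fold change -3.29, SE 0.60, adjusted p = 0.00053). Rptn had 52.1, 22.9, 71.8 and 39.0 CPM in combination libraries, against 833, 218 and 943 CPM in allogeneic ones (log2 fold change -3.84, SE 0.67, adjusted p = 0.0004). The groups stood apart for all 3, as they did under Wnt-C59 alone. Flg2 had 460, 250, 407 and 518 CPM in combination libraries (log2 fold change -0.94, SE 0.62, adjusted p = 0.21).

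S100a8 had 6.56, 10.9, 3.62 and 2.17 CPM in combination libraries, against 1557, 24.3 and 172 CPM in allogeneic ones (log2 fold change -6.65, SE 1.3, adjusted p = 0.0011, and -4.07 with adjusted p = 0.0038 without allogeneic library 1). S100a9 had 13.7, 26.4, 4.35 and 4.12 CPM in combination libraries, against 1629, 23.9 and 157 CPM in allogeneic ones (log2 fold change -5.63, SE 1.5, adjusted p = 0.0063, and -2.89 with adjusted p = 0.06 without allogeneic library 1). The neutrophil markers summed to 31.2, 61.3, 8.82 and 16.4 CPM in the same combination libraries. S100a14 had 437, 619, 604 and 419 CPM in combination libraries, against 281, 332 and 212 CPM in allogeneic ones (log2 fold change 0.92, SE 0.22, adjusted p = 0.0027). S100a16 had 417, 606, 697 and 410 CPM in combination libraries, against 215, 239 and 184 CPM in allogeneic ones (log2 fold change 1.33, SE 0.26, adjusted p = 0.00075). Both rose without overlap, and S100a1 and S100a4 rose by 1.10 and 0.95 with overlap (adjusted p = 0.014 and 0.038), calls that were lost without allogeneic library 1 or 3. The S100a4 call was also lost without combination library 2, 3 or 5 and with the keratinocyte covariate, and that of S100a1 with the GC trend removed (log2 fold change 0.67, adjusted p = 0.12).

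Among the fixed lists, 5 of 8 tested cytokines fell (62.5%, beside 27.4% of all genes), Il1a by 2.58, Ifng by 2.65 and Il36g (Il1f9) by 1.34 in log2 units (adjusted p = 0.00095, 0.0044 and 0.0087). Of the regulators 4 fell (25%) and 3 rose (18.8%), shares no higher than the 27.4% and 27.1% of all genes. Trp63 fell by 1.18 (adjusted p = 3.2e-05) and Fosl2 fell with an adjusted p of 0.00012. Of the crosslinking and processing genes 4 fell (26.7%) and 4 rose (26.7%), again no higher than over all genes. Spink5 fell by 1.84 and Cst6 rose by 3.02 (adjusted p = 1.6e-05 and 5.2e-05). Of the 4 activated keratins 0 fell: Krt6a and Krt16 were not called (log2 fold changes -0.85 and -1.14, adjusted p = 0.16 and 0.31), and Krt17 rose by 2.03 (adjusted p = 0.00025). Krt17 was the 1 keratin of that list not called in allogeneic against syngeneic skin.

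S100a3, Crnn and S100a7a followed a pattern of their own. S100a3 encodes a protein of the hair cuticle, Crnn encodes cornulin and S100a7a is a mouse relative of human psoriasin. S100a3 had 1.75, 1.88, 1268 and 162 CPM in combination libraries 2, 3, 4 and 5, 0.992 to 2.08 CPM in Wnt-C59 libraries, 0.486, 0.719 and 0.113 CPM in allogeneic libraries, and 200, 892, 998 and 946 CPM in syngeneic libraries. Crnn had 0.0388, 0, 988 and 64.7 CPM in combination libraries, 0.104 to 0.666 CPM in Wnt-C59 libraries, 1.22, 0.299 and 0.677 CPM in allogeneic libraries, and 103, 378, 257 and 165 CPM in syngeneic libraries. S100a7a had 1.01, 1.01, 74.1 and 7.83 CPM in combination libraries, 0.760 to 2.50 CPM in Wnt-C59 libraries, 2.69 to 11.3 CPM in allogeneic libraries, and 11.1, 43.6, 40.9 and 45.8 CPM in syngeneic libraries. S100a3 and Crnn were thus high in the same 6 libraries, syngeneic 1 to 4 and combination 4 and 5. S100a7a was highest in combination library 4 and syngeneic libraries 2 to 4, and allogeneic library 1 reached the level of syngeneic library 1 and exceeded combination library 5. The 9 hair follicle markers summed to 95.8, 70.3, 32460 and 4643 CPM in combination libraries, 107 to 130 CPM in Wnt-C59 libraries, 17.6 to 41.8 CPM in allogeneic libraries and 5388 to 16070 CPM in syngeneic libraries, and Krt71, a hair follicle keratin, was at or below 0.914 CPM in the libraries outside those 6. The part of the hair follicle in these results was not tested.

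In the tests, S100a3 and Crnn fell in allogeneic against syngeneic skin (log2 fold changes -10.75 and -8.26, SE 2.5 and 2.7, adjusted p = 0.0077 and 0.039), and in Wnt-C59 against syngeneic skin together with S100a7a (-9.08, -9.36 and -4.28, adjusted p = 0.0029, 0.0087 and 0.014). In allogeneic skin the Crnn call was lost without each single library of either group (adjusted p 0.05 to 0.13) and both calls were lost with limma-voom (0.16 for S100a3 and 0.15 for Crnn). Against allogeneic skin both were called higher under the combination (9.66 and 8.48, adjusted p = 0.0055 and 0.021), which rests on combination libraries 4 and 5. Without those libraries the log2 fold change of Crnn was -4.73 and that of S100a7a -2.80 (adjusted p = 0.019 and 0.0098), and that of S100a3 was 2.05 (adjusted p = 0.047). The Crnn call was also lost without combination library 4 and without each single allogeneic library (adjusted p 0.054 to 0.07). S100a2, whose annotated span lies within that of S100a3, had 4 counts in combination, 2 in Wnt-C59, 0 in allogeneic and 22 in syngeneic libraries.

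**Figure D5:**
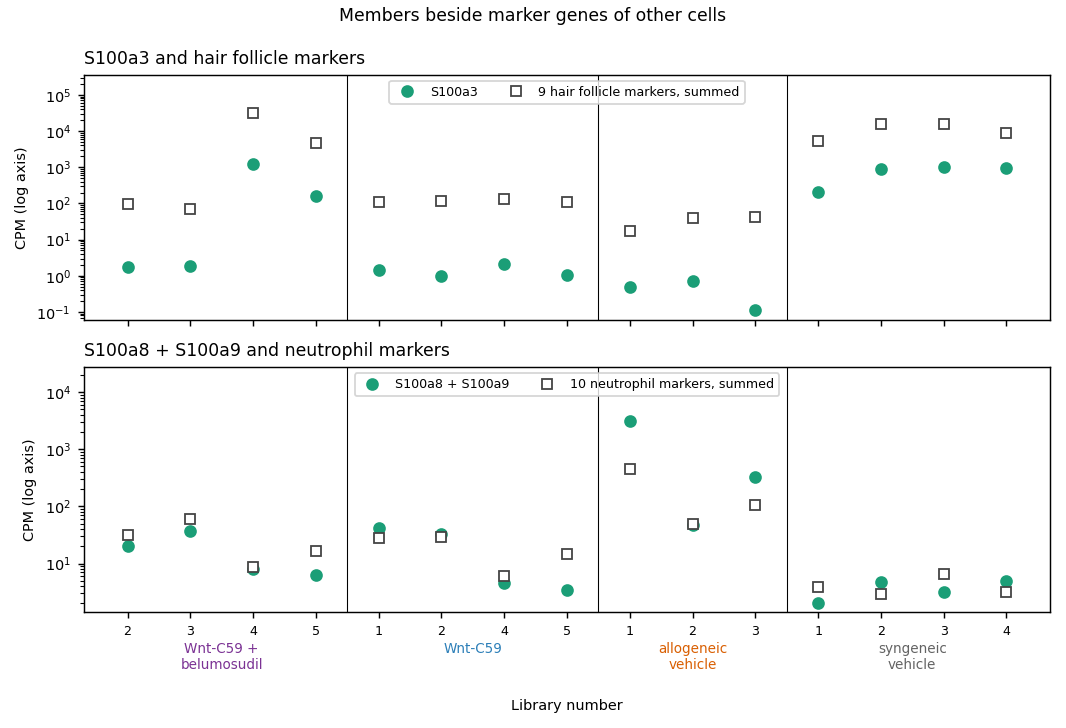
CPM on log axes in each library of S100a3 beside the sum of 9 hair follicle markers (top) and of S100a8 plus S100a9 beside the sum of 10 neutrophil markers (bottom), with combination libraries on the left and syngeneic libraries on the right. S100a3 and the hair follicle sum are high in syngeneic libraries and combination libraries 4 and 5, and S100a8 plus S100a9 and the neutrophil sum are highest in allogeneic library 1.

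Treated against syngeneic skin again compares treated with vehicle libraries (Spearman's rho with GC content 0.42 for Wnt-C59 and 0.5 for the combination). With Wnt-C59, 17 members (30.4%) were higher and 4 (7.14%) lower than in syngeneic skin, beside 26% and 27% of all genes (53.1% in either direction), with a median log2 fold change of 1.22 over members. The share of members higher with Wnt-C59 was thus near that of all genes. With the combination, 22 members (39.3%) were higher and 1 (1.79%) was lower, beside 26.9% and 27.2% of all genes (54.1% in either direction), with a median of 1.16. The libraries did not overlap for 14 members higher and 3 lower with Wnt-C59, beside 24.6% and 26% of all genes, and for 24 members higher and 1 lower with the combination, beside 23.7% and 23.8%. The summed Sprr2 level was 1056, 312, 198 and 690 CPM in combination libraries and 664, 50.2, 108 and 405 CPM in Wnt-C59 libraries, against 24.7, 13.6, 21.3 and 16.4 CPM in syngeneic ones. Every treated library thus stood above every syngeneic one for this sum, and far below the 5456 to 9270 CPM of allogeneic libraries. The Wnt-C59 counts depended on the libraries and on the tool: 8 members were higher without Wnt-C59 library 1, 10 without syngeneic library 1 or 2, 8 with limma-voom and 29 with DESeq2.

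Under Wnt-C59, 8 of 12 Sprr2 members were higher than in syngeneic skin, among them Sprr2i (143 counts over Wnt-C59 and 2 counts over syngeneic libraries, adjusted p = 0.0011), Sprr2d, Sprr2a3 and Sprr2a2 (log2 fold changes 4.56, 3.85 and 4.73, adjusted p = 0.0018, 0.0023 and 0.0036). The calls of Sprr2a1, Sprr2d, Sprr2e, Sprr2f and Sprr2g were lost with limma-voom. That of Sprr2a1 was also lost without Wnt-C59 library 1 or 5 or syngeneic library 1, 2 or 3, and that of Sprr2f without Wnt-C59 library 1. Lor was higher by 1.73 (SE 0.45, adjusted p = 0.0054) with no overlap. Sprr1a was lower by 1.11 (adjusted p = 0.05 after rounding, under the threshold before it), a call lost without Wnt-C59 library 2, 4 or 5 or syngeneic library 2, 3 or 4. S100a9 was higher by 3.58 (adjusted p = 0.044), a call lost without Wnt-C59 library 1 or 2 or any single syngeneic library, and S100a8 was not called (adjusted p = 0.22). Rptn and Flg2 were not called, Rptn having a log2 fold change of 0.13 (adjusted p = 0.86).

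Under the combination, 9 of 12 Sprr2 and 5 of 6 Lce3 members were higher than in syngeneic skin. Sprr2a3, Sprr2a2 and Sprr2d were higher by 4.47, 5.61 and 4.53 in log2 units (adjusted p = 0.00095, 0.0014 and 0.0016). The calls of Sprr2a1, Sprr2d, Sprr2e and Sprr2f were lost with limma-voom. Those of Sprr2a1 and Sprr2f were also lost without syngeneic library 1 or 2, and that of Sprr2f without syngeneic library 4. Sprr1b was higher by 4.19 (SE 0.95, adjusted p = 0.0028), with 28.6 CPM or more in every combination library and 10.3 CPM or less in every syngeneic one. S100a11 had 618, 846, 479 and 574 CPM in combination libraries, against 208, 199, 338 and 386 CPM in syngeneic ones (log2 fold change 1.16, SE 0.24, adjusted p = 0.0011). Flg2 was the only member called lower (log2 fold change -1.70, SE 0.59, adjusted p = 0.027), with no overlap, a call lost without combination library 3 or 4 or syngeneic library 1. Rptn was not called (log2 fold change 1.03, adjusted p = 0.16).

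Between the combination and Wnt-C59 alone, which differ by belumosudil, edgeR called 0 of 56 members, beside 0.231% of all genes in either direction. At an unadjusted p under 0.05 there were 10 members, but the share of all genes at that threshold was not computed, so this count has no background. DESeq2 called 4 members (Crnn, S100a14, S100a16 and Sprr1a, all higher under the combination), beside 1516 calls over all genes, so that the share of members called was near that of all genes. With limma-voom 0 members were called. Sprr1a came closest, with 1313, 1238, 3012 and 789 CPM in combination libraries, against 505, 271, 368 and 372 CPM in Wnt-C59 ones (log2 fold change 2.07, SE 0.46, 95% interval 1.17 to 2.97, adjusted p = 0.07). Every combination library exceeded every Wnt-C59 library for Sprr1a, S100a6, S100a14 and S100a16, beside 5.81% of all genes, and fell below every one for Flg2, beside 7.28%. For the 56 members tested, 4 higher is near that share of all genes and 1 lower is below it. S100a14 and S100a16 had log2 fold changes of 0.67 and 0.86 (SE 0.20 and 0.24, adjusted p = 0.10 and 0.092). The Sprr2 members had log2 fold changes between -1.53 and 1.93 and the Lce3 members between -0.54 and 1.41, none called. The intervals were wide: for Sprr2a3 the 95% interval of the log2 fold change reached from -0.85 to 2.08 around 0.62.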

How the data were processed

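Total RNA of mouse skin was sequenced in 15 libraries. The submitters' processing notes name Trim Galore, FastQC, HISAT2, featureCounts and the GRCm39 build, with no versions; which tool wrote the table, and its strand setting, are not given in the sources used here. The deposited table holds estimated counts per Ensembl gene, many of them not whole, which were rounded to whole counts. Treated libraries are numbered as the table's columns are, and the combination columns, whose short code the labels do not spell out, were matched by elimination. Symbols were found for 91.5% of rows.

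Counts were tested with edgeR 4.0.16 in R 4.3.3 (TMM scaling, filterByExpr, robust quasi-likelihood fit over all 15 libraries, group as the only term), with Benjamini-Hochberg adjustment over 18651 genes and a threshold of 0.05. CPM were computed from these counts with the TMM-scaled library sizes. Alternatives were DESeq2 1.42.0, limma-voom (limma 3.58.1), DESeq2 size factors, no filter, GC trend removed, a basal keratinocyte covariate, the compared groups only, each library left out and a replicate block. The script was tested on simulated data. Lengths, shared 50-base windows and promoters come from GRCm38 annotation and are used for names, order, windows and sequence only.

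The members and gene lists were chosen with earlier results of these data known. Named members were, in each family, the 4 with the highest mean CPM and, in each comparison, the 4 called higher and the 4 called lower with the smallest adjusted p, plus S100a8 and S100a9; of each list, up to 3 called genes were named. Lce3e, Lce3f and other members outside this rule were named after their values were seen.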

Additional observations from a re-analysis of the deposited data

Results flagged for a closer look

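Among 93 groups of 4 libraries tested over 31 members, 13 held a library that stood apart from the other 3 by Dixon's test. The test flags about 5% of groups by chance if values are normally distributed. It was run on CPM without a log scale and over members that vary together, so the 13 cannot be set against that 5%. A group with counts in a single library is always flagged, as for Sprr2i in syngeneic library 3 and Sprr2k in Wnt-C59 library 1. Combination library 4 stood highest for S100a3 (1268 CPM), Crnn (988 CPM), S100a7a (74.1 CPM) and Sprr4 (49.9 CPM). Combination library 2 stood highest for Lce1a1 (424 CPM) and Sprr2i (2.95 CPM). Wnt-C59 library 1 stood highest for Rptn (60.8 CPM), Lce3f (11.7 CPM), Lce3e (5.43 CPM) and Sprr2k (0.308 CPM). Syngeneic library 1 stood lowest for S100a3 (200.4 CPM) and S100a7a (11.1 CPM), and syngeneic library 3 held the only Sprr2i counts of its group (0.0916 CPM).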

How the results depend on the processing

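Of the results of named members under the alternatives, 2561 kept their call or stayed without a call, whatever the sign of an uncalled change. Another 181 lost a call and 79 gained one with the sign kept. A further 14 changed sign with a call in the main fit, the alternative or both. With the basal keratinocyte covariate, which nearly separates syngeneic from all other libraries, genes called were 956 in allogeneic against syngeneic skin, 323 between the combination and Wnt-C59, 24 for Wnt-C59 and 42 for the combination against syngeneic skin. Members called under it were 6 higher and 0 lower (allogeneic), 0 and 0 (Wnt-C59) and 1 and 0 (combination), all against syngeneic skin. Among named members called in the main fit, signs turned there in Wnt-C59 against syngeneic skin for S100a11 (-0.30), Sprr1b (-1.62), S100a3 (0.29), Crnn (1.83), S100a7a (1.40), S100a9 (-0.35), Lce3e (-1.09) and Lce3f (-0.64), and in the combination for S100a9 (-0.57). In allogeneic against syngeneic skin, members lower were 3 with limma-voom and 1 to 4 with single libraries left out. Same-numbered vehicle libraries did not deviate together (correlations -0.05, -0.14 and 0.01); the replicate block over 6 libraries gave 2869 genes and 2 members lower, and the same libraries without the block 3666 genes and 2 members. In Wnt-C59 against allogeneic skin, members higher were 1 with the GC trend removed (Lor at 0), 5 with the compared groups only and 1 to 3 with single libraries left out. In the combination against allogeneic skin, members higher were 4 to 8 and lower 13 to 23 with single libraries left out. Between the combination and Wnt-C59, edgeR called 43 genes, DESeq2 1516, limma-voom 65 and the compared groups only 18; leaving out single libraries gave 1 to 45, and DESeq2 called 4 members higher. In Wnt-C59 against syngeneic skin, members higher were 29 with DESeq2, 8 with limma-voom, 10 with no filter and 8 to 22 with single libraries left out, and lower were 2 with limma-voom, 8 with the GC trend removed and 3 to 7 with single libraries left out. In the combination against syngeneic skin, members lower were 3 with limma-voom, 0 with no filter, 2 with the GC trend removed and 0 to 2 with single libraries left out; Crnn was at -6.37 with limma-voom. Without combination libraries 4 and 5, chosen after seeing the data, members lower were 12 against allogeneic and 3 against syngeneic skin, 380 genes differed from Wnt-C59, and Crnn was at -4.73 against allogeneic and -12.97 against syngeneic skin and S100a7a at -2.80 against allogeneic skin. The causes were not tested. Depth limits the scarce members: S100a2 and Sprr3 had too few counts for a test.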
